A study of Mus musculus with 12 samples.

Results

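The genes described here are *Trp53*, which encodes the transcription factor p53, and the established p53 target genes of a fixed list, 39 genes in all. They were found by symbol among the 54446 genes counted in each of 12 RIP-seq libraries, and all 39 matched 1 identifier each. RIP-seq (RNA immunoprecipitation followed by sequencing) was done on myeloid cells carrying CD11b that had been taken out of subcutaneous tumors of MC38, a mouse colon cancer line. YTHDF2, the protein that was pulled down, reads the RNA mark N6-methyladenosine and promotes the degradation of marked mRNAs. The study asked which transcripts YTHDF2 holds in these cells and how local irradiation changes this.

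All mice were wild-type (WT), which in the study's methods means *Ythdf2* f/f without Cre, on a C57BL/6J background, and were young adults of both sexes. In the IR group the tumors had received 1 dose of 20 Gy and the cells were collected 3 days later. In the Ctrl group the tumors were not irradiated. A group consisted of 3 pools, each made from 5 mice and called a technical replicate in the methods, so the p-values measure only the spread between these pools. Each pool gave an Input library (the RNA of the lysate) and an IP library (the RNA recovered with the anti-YTHDF2 antibody). The sources differ on the antibody (Abcam in the records, Aviva in the methods) and on mRNA selection, which the records describe and the RIP methods do not.

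p53 is kept low in unstressed cells by MDM2, which marks it for destruction, and it is stabilized as a protein after DNA damage. It then switches on genes that stop the cell cycle, start cell death, repair DNA or limit growth, and it switches on *Mdm2*, its own inhibitor. The members are therefore ordered by these roles: arrest and feedback (12 genes), cell death (11), DNA repair (5), metabolism and stress signalling (8) and immune recognition (2), beside *Trp53* itself.

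The libraries held 27852948 to 42382532 counts on genes. Together the 39 genes made up 0.226% to 0.233% of each Ctrl Input and 0.474% to 0.482% of each IR Input. In the IPs they made up 0.156% to 0.169% in Ctrl and 0.334% to 0.350% in IR. The IR pools were above the Ctrl pools in both fractions without overlap. Levels below are CPM, counts relative to the size of the library, scaled with TMM, which assumes that most genes do not change, on the scale of the 6 libraries of a fraction. Of 10 myeloid marker genes, all were above 1 CPM in every group. *Itgam*, which encodes CD11b, was at 951 to 963 CPM in the Ctrl Inputs and 1621 to 1667 CPM in the IR Inputs, the largest rise of the 10. By the edgeR test given below, 5 of the 10 were higher in the IR Inputs and 4 lower. Among all genes tested, 21% were higher and 23.9% lower. The median log2 fold change of the 10 was 0.04. All 6 T cell markers were under 1 CPM in the Inputs. Of 7 epithelial markers, 5 were under 1 CPM in the Inputs, with *Krt19* at 0 in every library. The other two were *Cdh1*, at 116 to 124 CPM in the Ctrl Inputs and 82.5 to 86.3 CPM in the IR Inputs, and *Epcam*, at 4.38 to 5.27 and 4.54 to 6.30 CPM. The part of other cell types in the results was not tested. In such bulk samples fewer cells of a type and less RNA per cell cannot be told apart.

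In the Input, most p53 targets were higher in irradiated tumors. With edgeR's quasi-likelihood test over 16914 genes and Benjamini-Hochberg adjusted p under 0.05, 33 of the 39 genes were higher, 2 were lower and 4 did not pass. Among all genes tested, 21% were higher and 23.9% lower. Of the members 18 were at least 2-fold higher, against 2.03% of all genes. The median log2 fold change (IR over Ctrl) was 0.92 for the members and 0.0072 for all genes. In 34 of 39 members every IR Input was above every Ctrl Input, which held for 25.4% of all genes. In 1 member (*Rrm2b*) every IR Input was below, against 27% of all genes.

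**Figure D1:**
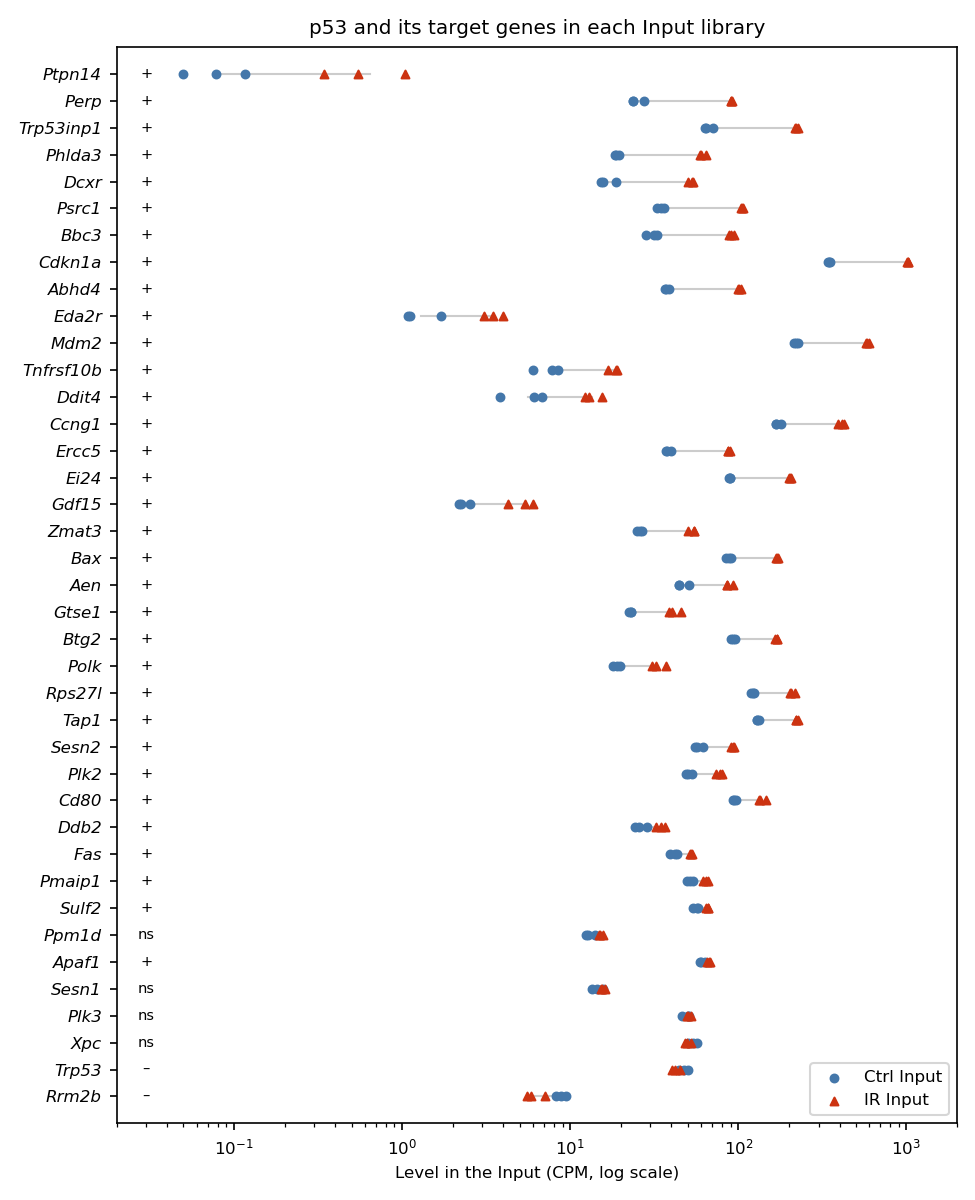
Level of each of the 39 genes in the 3 Ctrl Inputs (circles) and the 3 IR Inputs (triangles), in CPM on a log axis, ordered by log2 fold change, with a gray line between the group means. The signs at the left give the edgeR call (+ higher, – lower, ns not called), and the IR Inputs stood to the right of the Ctrl Inputs without overlap for 34 genes.

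*Trp53* itself (chromosome 11, 69580359 to 69591873, GRCm38) was not among the genes that rose. It was at 44.1, 50.2 and 47.2 CPM in Ctrl Input pools 1 to 3 and at 41.7, 45.1 and 40.2 CPM in the IR Inputs. The groups overlapped, since IR pool 2 was above Ctrl pool 1. The log2 fold change was -0.16 ± 0.058 (SE) with an edgeR adjusted p of 0.0279. The call was lost without Ctrl Input 2 (adjusted p = 0.152), Ctrl Input 3 (0.0602), IR Input 1 (0.0739) or IR Input 3 (0.147).

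Of the 12 arrest and feedback genes 10 were higher and 2 (*Plk3* and *Ppm1d*) did not pass. *Cdkn1a* (chromosome 17, 29090976 to 29100727) encodes the cyclin-dependent kinase inhibitor that carries p53-driven arrest. It was at 342, 349.6 and 346 CPM in the Ctrl Inputs and at 1018, 1022 and 1010 CPM in the IR Inputs. The pools of a group lay within a few percent of each other, and the groups stood far apart. *Cdkn1a* was 2.94-fold higher (log2 1.56 ± 0.028, edgeR adjusted p = 8.12e-25) and ranked 9th of 16914 genes by p-value. *Mdm2* (chromosome 10, 117688875 to 117710758) was at 219.7, 214 and 225 CPM in Ctrl and at 577, 583 and 595 CPM in IR, again without overlap. This made *Mdm2* 2.66-fold higher (log2 1.41 ± 0.031, edgeR adjusted p = 1.14e-22). Per kilobase of exon, the mean level of *Cdkn1a* in the Inputs went from 97.3 to 286 CPM and that of *Mdm2* from 43.2 to 115 CPM, and in IR *Cdkn1a* was the highest of the 39 genes on this scale.

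*Trp53inp1*, which encodes a stress-induced nuclear protein that binds p53, was at 70.9, 63.8 and 63.0 CPM in the Ctrl Inputs and at 226, 220.1 and 219 CPM in the IR Inputs. The rise was 3.36-fold without overlap (log2 1.75 ± 0.042, edgeR adjusted p = 6.74e-22). *Psrc1*, a microtubule-associated protein gene, rose by a log2 of 1.60 and *Ccng1* (cyclin G1) by 1.27. *Zmat3*, which encodes a zinc finger RNA-binding protein, rose by 1.03, *Gtse1* by 0.87, the antiproliferative gene *Btg2* by 0.86, *Rps27l* by 0.79 and the polo-like kinase gene *Plk2* by 0.60. The related kinase gene *Plk3* was at log2 0.04 (adjusted p = 0.583). *Ppm1d*, which encodes a phosphatase that shuts off damage signalling, was at 0.22 with an adjusted p of 0.0509, just outside the threshold, and its groups did not overlap.

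All 11 cell death genes were higher in the IR Inputs, from a log2 fold change of 0.13 to 1.87. *Perp*, a membrane protein gene of the apoptosis program, was at 23.7, 27.5 and 23.5 CPM in Ctrl and at 91.5, 90.5 and 91.0 CPM in IR. The rise was 3.65-fold (log2 1.87 ± 0.055, edgeR adjusted p = 7.92e-20) with a wide gap between the groups. *Phlda3*, which encodes an inhibitor of Akt signalling, was at 19.5, 18.6 and 18.8 CPM in Ctrl and at 60.2, 63.9 and 58.8 CPM in IR. It rose 3.22-fold without overlap (log2 1.69 ± 0.058, edgeR adjusted p = 2.25e-18).

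The BCL2 family genes were uneven. *Bbc3* (PUMA) rose by a log2 of 1.56, *Bax*, the pore-forming effector, by 0.95 and *Pmaip1* (Noxa) by 0.30. The death receptor genes *Eda2r*, *Tnfrsf10b* and *Fas* rose by 1.42, 1.28 and 0.33, with *Eda2r* low at 1.09 to 1.71 CPM in Ctrl and 3.07 to 3.98 CPM in IR. *Ei24* rose by 1.19 and the nuclease gene *Aen* by 0.92. *Apaf1*, the core of the apoptosome, had the smallest change, at 0.13 (adjusted p = 0.0267). That call was lost without Ctrl Input 1 (0.103) or 3 (0.0955) or IR Input 2 (0.0513) or 3 (0.105). *Bax* shares 192 exon bases with *Gm45808* on the same strand, so its reads cannot all be told from those of that gene.

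The DNA repair genes were divided. *Ercc5*, which encodes a nuclease of nucleotide excision repair, rose 2.29-fold, a log2 of 1.20, *Polk*, a translesion polymerase gene, by 0.82 and *Ddb2*, which encodes a lesion sensor, by 0.40. *Xpc*, another lesion sensor gene, was at -0.11 (adjusted p = 0.0940). *Rrm2b*, which encodes a p53-inducible subunit of ribonucleotide reductase, was the other gene to fall. It was at 8.85, 9.44 and 8.19 CPM in the Ctrl Inputs and at 5.55, 7.04 and 5.81 CPM in the IR Inputs. No IR Input reached the lowest Ctrl Input, and the log2 fold change was -0.53 ± 0.13 (edgeR adjusted p = 0.00111). With the spread of all 12 libraries in one fit, *Rrm2b* did not pass (adjusted p = 0.141).

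Of the 8 metabolism and stress genes 7 were higher. *Dcxr*, a sugar reductase gene, was at 15.2, 15.6 and 18.7 CPM in Ctrl and at 53.6, 53.4 and 50.3 CPM in IR. It rose 3.17-fold without overlap (log2 1.66 ± 0.070, edgeR adjusted p = 1.66e-16). The lipid hydrolase gene *Abhd4* rose by 1.44, *Ddit4*, which encodes an inhibitor of mTOR signalling, by 1.27, the stress cytokine gene *Gdf15* by 1.16, *Sesn2* by 0.68 and the sulfatase gene *Sulf2* by 0.23. *Sesn1*, which like *Sesn2* encodes a brake on mTOR signalling, was at 0.11 (adjusted p = 0.349) with overlapping groups. The phosphatase gene *Ptpn14* was called higher from very few counts, 4, 3 and 2 in the Ctrl Inputs and 42, 13 and 23 in the IR Inputs.

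Both immune recognition genes rose. *Tap1*, which encodes a subunit of the peptide transporter for MHC class I, rose by a log2 of 0.77 and *Cd80*, the T cell co-stimulatory ligand gene, by 0.54.

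**Figure D2:**
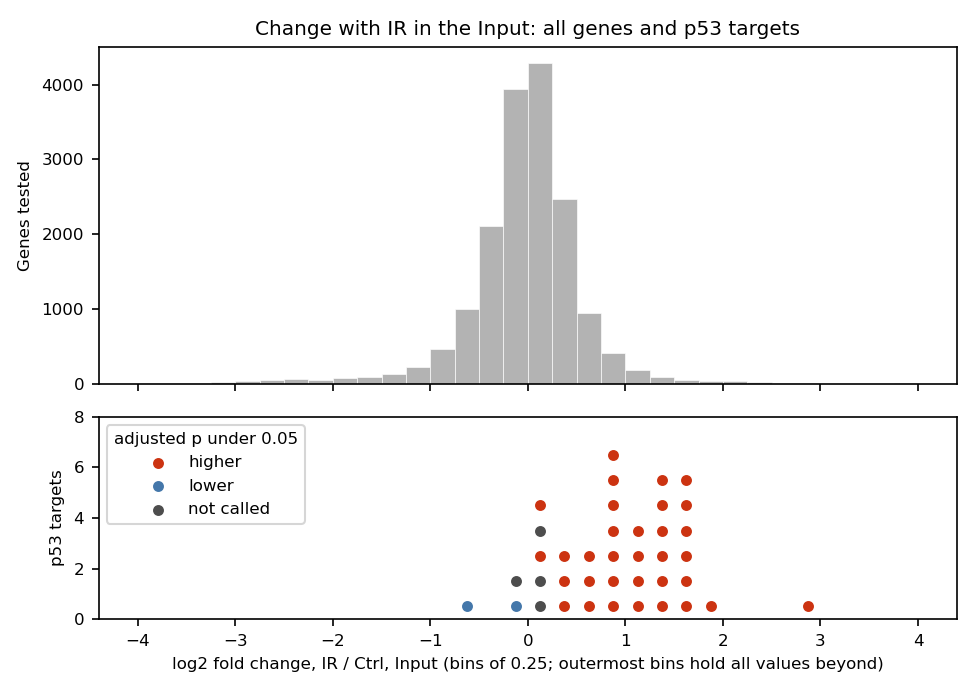
Distribution of log2 fold changes (IR over Ctrl, Input) of all 16914 genes tested (top, bars of 0.25) and of the 39 genes in the same bins (bottom, 1 dot per gene, colored by call). The bulk of all genes centered near 0, whereas the members had a median of 0.92.

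Other measures moved with IR in the same Inputs. Of 21 cell cycle genes 19 were lower and 0 higher (2 did not pass), against 23.9% and 21% of all genes. *Ccnb1* was at a log2 of -1.12, *Mki67* at -1.01 and *Mcm2* at -0.96. The summed level of 5 neutrophil markers was 5850 to 6538 CPM in Ctrl and 7766 to 8466 CPM in IR. The share of reads on no gene was 26.9% to 27.0% in Ctrl and 24.7% to 24.8% in IR. Their part in the changes of the p53 targets was not tested.

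Genes that act on p53 moved in both directions. Of 30 p53 regulators tested in the Input, 10 were higher and 12 lower, against 21% and 23.9% of all genes. Their median log2 was -0.03. *Atm*, which encodes the kinase that signals DNA breaks to p53, was at -1.31 ± 0.10 (edgeR adjusted p = 5.50e-11). *Cdkn2a*, whose ARF product inhibits MDM2, was at 0.98 ± 0.33 and *Ppp1r13l*, which encodes an inhibitor of p53, at 0.89. *Cdkn2a* was low, at 0.643 to 0.934 CPM in the Ctrl Inputs and 1.36 to 1.78 CPM in the IR Inputs. Counts per gene do not show which of its products changed. Of 32 further p53 targets outside the 39 genes, 15 were higher and 3 lower, against the same shares of all genes. Their median was 0.10. The largest rises were in *Ak1* (log2 2.79 ± 0.13), *Crip2* (2.40 ± 0.15) and *Kank3* (1.95 ± 0.057), all past the edgeR threshold.

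The members' promoters were searched for the p53 response element, which is a pair of 10-base blocks. A match had at most 2 letters off over both blocks, at most 1 base between them and the central C and G of each block kept. The element reads the same on both strands. RefSeq (GRCm38.p6) gave windows from 250 bases before to 50 bases after a start for 31 of the 39 genes. A gene can have several windows (32851 in all), and it was counted if any of them held a match. Of these 31 genes 6 (19.4%) held a match, against 0.807% of 27025 genes with a window. The matches are shown 5′ to 3′ on the gene's strand with both blocks in capitals. The members are known as p53 targets and the search was set up after the windows had been seen, so the share is a description and no test. The matches describe letters only, and a window without a match says nothing of p53.
Cdkn1a, chr17:29090923-29090952, + strand: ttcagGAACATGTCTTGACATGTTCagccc
Ccng1, chr11:40755457-40755486, - strand: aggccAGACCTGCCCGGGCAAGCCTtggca
Bax, chr7:45467075-45467104, - strand: atcccAGGCAAGCTTtGAACTTGCGGcaat
Rps27l, chr9:66946291-66946320, + strand: atggcGGGCTTGTTGAGACTTGTCCgggcg
Gtse1, chr15:85859940-85859969, + strand: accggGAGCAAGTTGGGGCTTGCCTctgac
Cd80, chr16:38458817-38458846, + strand: gctcaGAACAGGCCTGGACAAGTCAcctcc

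The block pair began 51 bases before the RefSeq start of *Cdkn1a*, 195 before that of *Ccng1*, 201 before that of *Bax*, 117 before that of *Rps27l*, 111 before that of *Cd80* and 1 base before that of *Gtse1*. The Input changes of these genes ran from a log2 of 0.54 (*Cd80*) to 1.56 (*Cdkn1a*). All 6 were called higher, as were 84.6% of all members, so this count does not set them apart. In *Gtse1* a second, overlapping match began at base 10 after the start. Each distance is from the start of the window that held the match, which need not be the first start of the gene. By GENCODE coordinates the matches of *Rps27l*, *Gtse1* and *Cd80* lay inside the genes, which begin at 66946086, 85859745 and 38455561.

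In the YTHDF2 IP, the p53 targets were also more abundant after IR. Of the 39 genes 27 were higher, 0 lower and 12 did not pass (edgeR, 19255 genes tested), against 6.12% of all genes higher and 9.85% lower. The median log2 fold change was 0.95 for the members and 0.06 for all genes, and 17 members were at least 2-fold higher, against 2.97% of all genes. In 30 members every IR IP was above every Ctrl IP and in 0 below, against 16.6% and 17.4% of all genes. All 27 were also higher in the Input of the same pools, while 6 genes were higher in the Input and not called in the IP (*Eda2r*, *Fas*, *Plk2*, *Gdf15*, *Ddb2* and *Cd80*). For *Plk2* and *Cd80* every IR IP was still above every Ctrl IP. Both genes were called higher in the IP with library size alone and with all 12 libraries in one fit. Another 6 were called higher in neither fraction (*Trp53*, *Sesn1*, *Plk3*, *Xpc*, *Rrm2b* and *Ppm1d*). Of these, *Ppm1d* had every IR library above every Ctrl library in both fractions (edgeR adjusted p = 0.0509 in the Input and 0.0796 in the IP). The share of all genes that were higher in both fractions was not counted.

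By role, 9 of 12 arrest and feedback genes, 9 of 11 cell death genes, 2 of 5 repair genes, 6 of 8 metabolism and stress genes and 1 of 2 immune genes were higher in the IP. *Trp53inp1* was at 24.0, 31.0 and 25.4 CPM in the Ctrl IPs and at 122, 115.7 and 121 CPM in the IR IPs. It rose 4.45-fold without overlap (log2 2.15 ± 0.10, edgeR adjusted p = 6.39e-10), the largest rise among members with a mean of at least 100 counts. *Ddit4* was at 1.85, 3.87 and 2.79 CPM in Ctrl and at 11.2, 9.74 and 11.8 CPM in IR. Its rise was 3.83-fold, also without overlap (log2 1.94 ± 0.29, edgeR adjusted p = 0.000228).

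*Perp* was at 8.12, 9.01 and 8.77 CPM in the Ctrl IPs and at 28.3, 32.4 and 28.4 CPM in the IR IPs, a log2 of 1.78 ± 0.16. *Zmat3* was at 19.9, 20.6 and 14.8 CPM in Ctrl and at 68.5, 57.3 and 61.2 CPM in IR, a log2 of 1.75 ± 0.14. For both genes every IR IP was above every Ctrl IP. *Cdkn1a* was at 149.6, 153 and 152 CPM in Ctrl and at 372, 375 and 386 CPM in IR (log2 1.32 ± 0.054), and *Mdm2* at 207, 223 and 193 CPM in Ctrl and 448, 468 and 432 CPM in IR (log2 1.12 ± 0.061). The edgeR adjusted p-values of these genes were 6.18e-07 for *Perp*, 1.55e-07 for *Zmat3*, 9.53e-11 for *Cdkn1a* and 2.32e-09 for *Mdm2*.

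*Trp53* did not differ detectably between the IPs, at 11.2, 16.4 and 14.8 CPM in Ctrl and 16.0, 11.8 and 13.9 CPM in IR (log2 -0.02 ± 0.20, edgeR adjusted p = 0.958). Its pools overlapped fully. The share of reads on no gene was 41.8% to 42.7% in the Ctrl IPs and 49.4% to 54.1% in the IR IPs, and its part in these values was not tested. With library size alone in place of TMM, the median of all genes moved by 0.21 and that of the members was 1.15, with 30 members higher. Of all genes 13.8% were then higher. The calls of 4 members were lost when 1 library was left out: *Tnfrsf10b* without Ctrl IP 1 (adjusted p = 0.0541) or 3 (0.0836), *Sulf2* without Ctrl IP 1 (0.0556), *Rps27l* without Ctrl IP 3 (0.0980) and *Ptpn14* without any of 4 libraries (0.0514 to 0.0781).

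**Figure D3:**
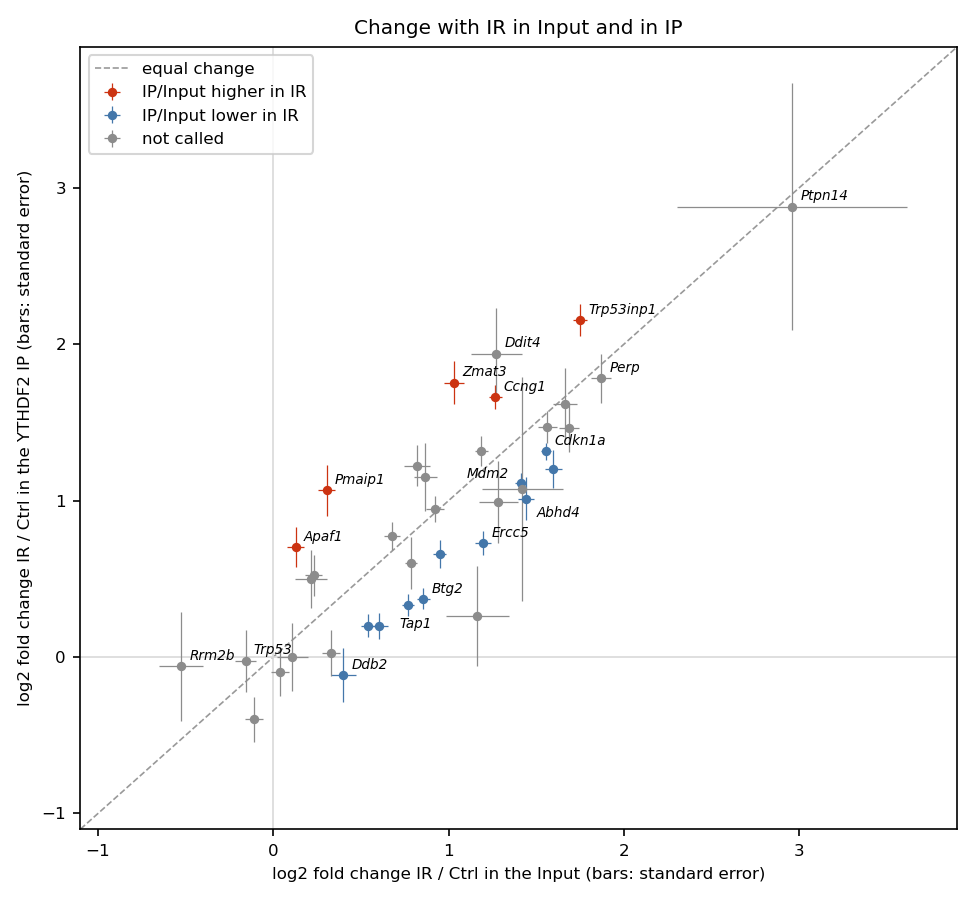
Log2 fold change (IR over Ctrl) in the Input (x axis) and in the YTHDF2 IP (y axis) for the 39 genes, with standard errors as bars and equal change as a dashed line. Colors give the edgeR call for the change of the IP/Input ratio, 5 higher (red) and 11 lower (blue). With library size alone in place of TMM these counts were 9 and 1, and 13.8% of all genes were higher and 4.23% lower.

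The study defined YTHDF2 targets by a higher level in the IP than in the Input of the same condition. By that comparison, more p53 targets were under-represented than over-represented in the IP. In Ctrl, 38 members were tested (*Ptpn14* had too few counts), of which 9 were higher in the IP, 19 lower and 10 did not pass. Among all 17416 genes tested, 34.1% were higher and 34.6% lower. The median log2 of IP over Input was -0.42 for the members and 0.02 for all genes. The 3 IPs were all above the 3 Inputs for 9 members and all below for 18, against 35.8% and 37.1% of all genes, so the members' share below was the higher one.

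*Ercc5*, *Gdf15*, *Phlda3* and *Plk2* had the largest IP excess in Ctrl. Ratios per pool pair the Input and IP with the same number, a pairing that the methods do not state. The IP/Input ratio of CPM per pool, on the scale of all 12 libraries, was 2.17, 2.25 and 2.09 for *Ercc5* (log2 1.19 ± 0.070 in the fit). For *Gdf15* it was 3.16, 2.38 and 3.14 (log2 1.61 ± 0.23), for *Phlda3* 1.42, 2.12 and 1.69 (0.87 ± 0.12) and for *Plk2* 1.66, 1.56 and 1.60 (0.76 ± 0.065). All were above 1 in every pool, with *Gdf15* resting on 75 to 102 Input counts. The edgeR adjusted p-values were 6.03e-11, 5.99e-06, 3.36e-06 and 1.19e-08 in this order. The others that were higher were *Btg2*, *Bbc3*, *Aen*, *Tap1* and *Cd80*, at a log2 of 0.19 to 0.74.

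*Rps27l*, *Pmaip1*, *Trp53* and *Ccng1* were the most depleted in the Ctrl IP. The IP/Input ratio was 0.130, 0.132 and 0.107 for *Rps27l* (log2 -2.94 ± 0.074) and 0.207, 0.305 and 0.263 for *Pmaip1* (-1.88 ± 0.11). It was 0.255, 0.325 and 0.311 for *Trp53* (-1.67 ± 0.12) and 0.362, 0.320 and 0.304 for *Ccng1* (-1.53 ± 0.057). All were far below 1 in every pool. The edgeR adjusted p-values were 5.34e-16, 3.34e-11, 8.00e-10 and 1.08e-13 in this order. *Rps27l* is a close relative of the ribosomal protein gene *Rps27* and its copies, so its reads are uncertain where the sequences are alike. The other 15 were *Cdkn1a*, *Trp53inp1*, *Fas*, *Zmat3*, *Plk3*, *Ddit4*, *Ddb2*, *Ei24*, *Perp*, *Rrm2b*, *Dcxr*, *Sulf2*, *Abhd4*, *Apaf1* and *Gtse1*. The call of *Ddit4* was lost without Ctrl Input 2 (adjusted p = 0.0608).

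In IR, all 39 members were tested, and 8 were higher in the IP, 24 lower and 7 did not pass. Of all 18650 genes 32.1% were higher and 30.4% lower, and the median log2 was -0.47 for the members and 0.10 for all genes. The IPs were all above the Inputs for 10 members and all below for 26, against 34.9% and 34.5% of all genes. Those higher were *Ercc5* (0.61 ± 0.056), *Phlda3* (0.54 ± 0.14), *Aen* (0.49 ± 0.068), *Bbc3* (0.42 ± 0.070), *Polk* (0.29), *Plk2* (0.24), *Btg2* (0.15) and *Ptpn14*, the last on few counts. Their IP/Input ratios per pool were 1.43, 1.54 and 1.44 for *Ercc5*, 1.08, 1.63 and 1.49 for *Phlda3*, 1.33, 1.45 and 1.29 for *Aen* and 1.36, 1.25 and 1.26 for *Bbc3*. These 4 genes were above 1 in every IR pool, with edgeR adjusted p-values of 3.35e-06, 0.00520, 9.29e-05 and 0.000345. With the replicate number as a block, which takes Input and IP of the same number as the same lysate, *Btg2* did not pass (adjusted p = 0.0574). Without IR Input 1 or without IR Input 3, 5 members were higher, and *Polk* (adjusted p = 0.162 and 0.126) and *Btg2* (0.173 and 0.129) were among those lost both times. The call of *Ptpn14* held in 2 of 6 fits that left out a library, and its IP and Input groups overlapped. Among the 24 lower, the call of *Sesn1* held in 1 of these 6 fits and that of *Xpc* in 3.

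The lowest in the IR IP were *Rps27l*, *Perp*, *Trp53* and *Cdkn1a*. Their ratios were 0.114, 0.0869 and 0.104 for *Rps27l* (log2 -3.24 ± 0.096), 0.290, 0.336 and 0.293 for *Perp* (-1.65 ± 0.080), 0.361, 0.244 and 0.326 for *Trp53* (-1.64 ± 0.13) and 0.344, 0.344 and 0.359 for *Cdkn1a* (-1.47 ± 0.036). No pool came near a ratio of 1. The edgeR adjusted p-values were 3.64e-10, 1.54e-08, 1.04e-06 and 9.62e-11. Thus *Cdkn1a*, the most abundant p53 target per kilobase in IR, was 2.76-fold lower in the IP than in the Input there and 2.17-fold lower in Ctrl.

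Across both conditions, 17 members were lower in the IP than in the Input in both, and 6 (*Bbc3*, *Phlda3*, *Plk2*, *Btg2*, *Aen* and *Ercc5*) were higher in both. Of all genes 34.6% were lower in Ctrl and 30.4% in IR, and 34.1% and 32.1% were higher. The share of all genes called the same way in both conditions was not counted, so the 17 and 6 cannot be set against it. Among the 6, the IR call of *Plk2* was lost without IR Input 1 (adjusted p = 0.0628) and without the filter on low counts (0.306), and that of *Btg2* as given above. *Rrm2b*, among the 17, passed in IR in 1 of 6 fits that left out a library and was lost without any of the IR Inputs or IR IP 2 or 3 (adjusted p = 0.0698 to 0.153). *Cd80* was higher than the Input in Ctrl (log2 0.19 ± 0.052, edgeR adjusted p = 0.00298) and lower in IR (-0.26 ± 0.063, adjusted p = 0.00448). With library size alone in place of TMM neither call of *Cd80* stood (adjusted p = 0.874 in Ctrl and 0.144 in IR), and without IR IP 1 the call in IR was lost (0.0634). That scaling moved the median of all genes by -0.18 in Ctrl and 0.15 in IR, and the members' median stayed below it, at -0.60 and -0.32.

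**Figure D4:**
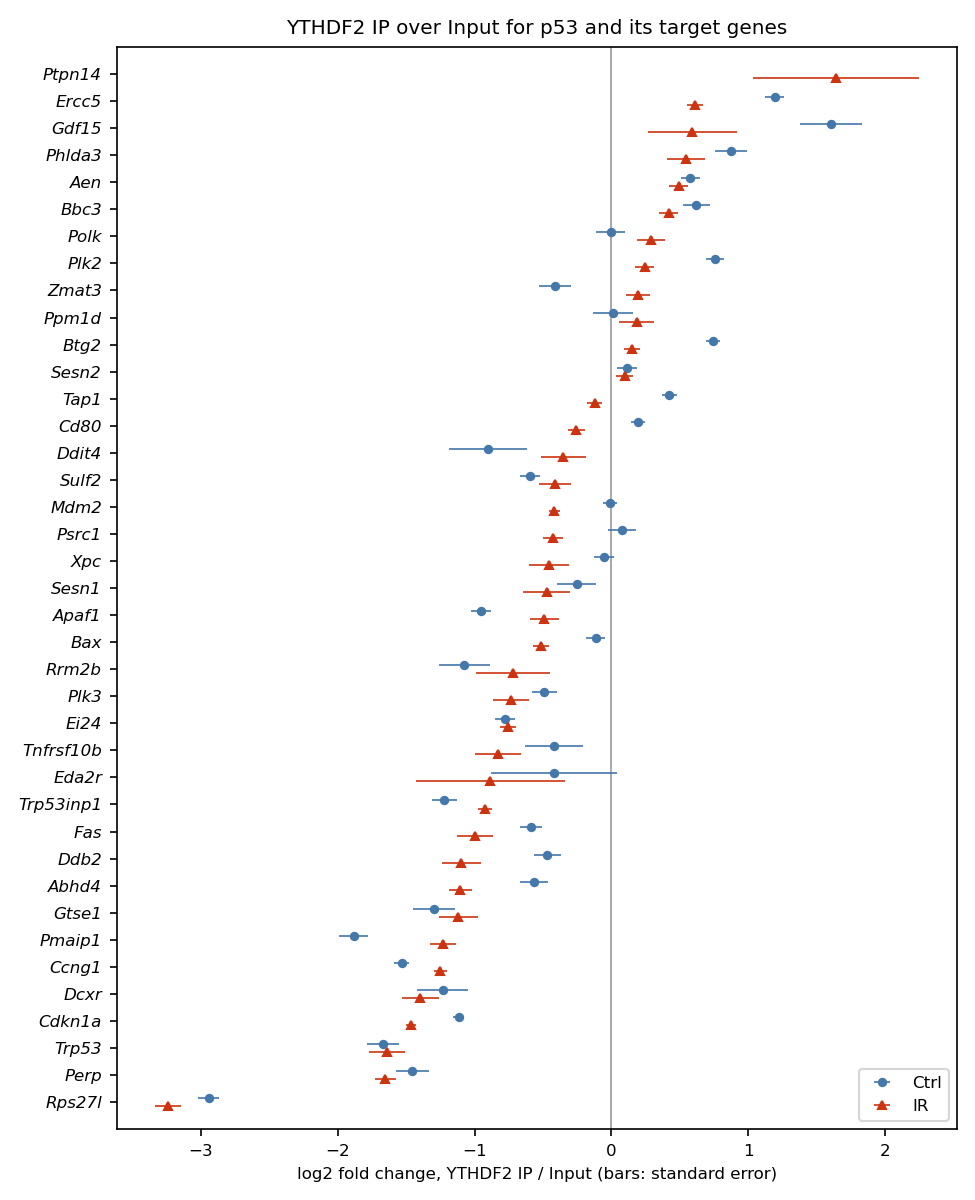
Log2 fold change of YTHDF2 IP over Input for the 39 genes in Ctrl (circles) and IR (triangles), with standard errors as bars, ordered by the value in IR. *Rps27l* lay lowest in both conditions at -2.94 and -3.24, and *Ptpn14*, untested in Ctrl, had the widest bars.

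Whether the IP/Input ratio itself differed between Ctrl and IR was tested as an interaction over all 12 libraries (20720 genes). Of the 39 members 5 had a higher ratio in IR, 11 a lower ratio and 23 did not pass, against 6.28% of all genes higher and 13.9% lower. The median change in log2 was -0.20 for the members and -0.08 for all genes. The ratios of the IR pools were all above those of the Ctrl pools for 6 members and all below for 13, against 14.2% and 21.4% of all genes. These directions depend on the scaling: with library size alone the median of all genes moved by 0.31, that of the members became 0.11, and 9 members were higher and 1 (*Btg2*) lower. Of all genes 13.8% were then higher and 4.23% lower. No called member changed sign under that scaling. The ratio cannot show a change in YTHDF2 binding that most genes share, and the share of reads on no gene differed between Ctrl and IR IPs as given above.

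The 5 with a higher ratio in IR were *Pmaip1*, *Zmat3*, *Apaf1*, *Trp53inp1* and *Ccng1*, and they were also the members called higher under library size alone together with *Sesn2*, *Polk*, *Ei24* and *Sulf2*. *Pmaip1* went from 0.207, 0.305 and 0.263 in the Ctrl pools to 0.394, 0.433 and 0.402 in the IR pools (log2 change 0.67 ± 0.15, edgeR adjusted p = 0.00212). *Zmat3* went from 0.798, 0.766 and 0.568 to 1.18, 0.984 and 1.14 (0.63 ± 0.15, edgeR adjusted p = 0.00467). The pools of both genes did not overlap between conditions, and *Zmat3* was lower in the IP than in the Input in Ctrl and did not pass in IR (adjusted p = 0.0730).

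*Apaf1* went from 0.477, 0.494 and 0.497 to 0.699, 0.796 and 0.564 (0.49 ± 0.13, edgeR adjusted p = 0.0126), again without overlap. *Trp53inp1* went from 0.340, 0.483 and 0.402 to 0.509, 0.493 and 0.519 (0.32 ± 0.11, edgeR adjusted p = 0.0386). Here Ctrl pool 2 lay close to the IR pools, and the call was lost without any of 7 single libraries (adjusted p = 0.0504 to 0.113). *Ccng1* changed by 0.31 ± 0.076 (edgeR adjusted p = 0.00634).

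The 11 with a lower ratio in IR held 2 of the 5 repair genes and both immune recognition genes. *Btg2* went from 1.55, 1.68 and 1.54 in the Ctrl pools to 1.03, 1.13 and 1.04 in the IR pools (log2 change -0.57 ± 0.077, edgeR adjusted p = 1.59e-05). *Ercc5* went from 2.17, 2.25 and 2.09 to 1.43, 1.54 and 1.44 (-0.56 ± 0.090, edgeR adjusted p = 0.000117). Both genes stayed above 1 in all pools while every IR pool was below every Ctrl pool. *Tap1* went from 1.31, 1.32 and 1.18 to 0.949, 0.870 and 0.837 (-0.52 ± 0.079, edgeR adjusted p = 5.95e-05). It was higher in the IP than in the Input in Ctrl, and in IR that comparison did not pass (log2 -0.12, adjusted p = 0.0682).

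*Ddb2* went from 0.749, 0.712 and 0.608 to 0.379, 0.549 and 0.426 (-0.61 ± 0.18, edgeR adjusted p = 0.0198). Its groups did not overlap, but the call was lost without any of 7 single libraries (adjusted p = 0.0520 to 0.0808). *Cdkn1a* went from 0.439, 0.435 and 0.439 to 0.344, 0.344 and 0.359 (-0.33 ± 0.049, edgeR adjusted p = 5.75e-05) and *Mdm2* from 0.947, 1.03 and 0.852 to 0.730, 0.754 and 0.682 (-0.38 ± 0.067, edgeR adjusted p = 0.000300). With library size alone neither passed (-0.02, adjusted p = 0.869 for *Cdkn1a* and -0.07, adjusted p = 0.562 for *Mdm2*). *Plk2*, *Abhd4*, *Psrc1*, *Cd80* and *Bax* were lower by 0.38 to 0.52. Without Ctrl IP 1, 7 members were lower, with *Bax* (adjusted p = 0.0785), *Psrc1* (0.0824), *Abhd4* (0.0881) and *Ddb2* (0.0808) lost, and *Bax* (0.0622), *Psrc1* (0.0997) and *Ddb2* were also lost without Ctrl IP 3.

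**Figure D5:**
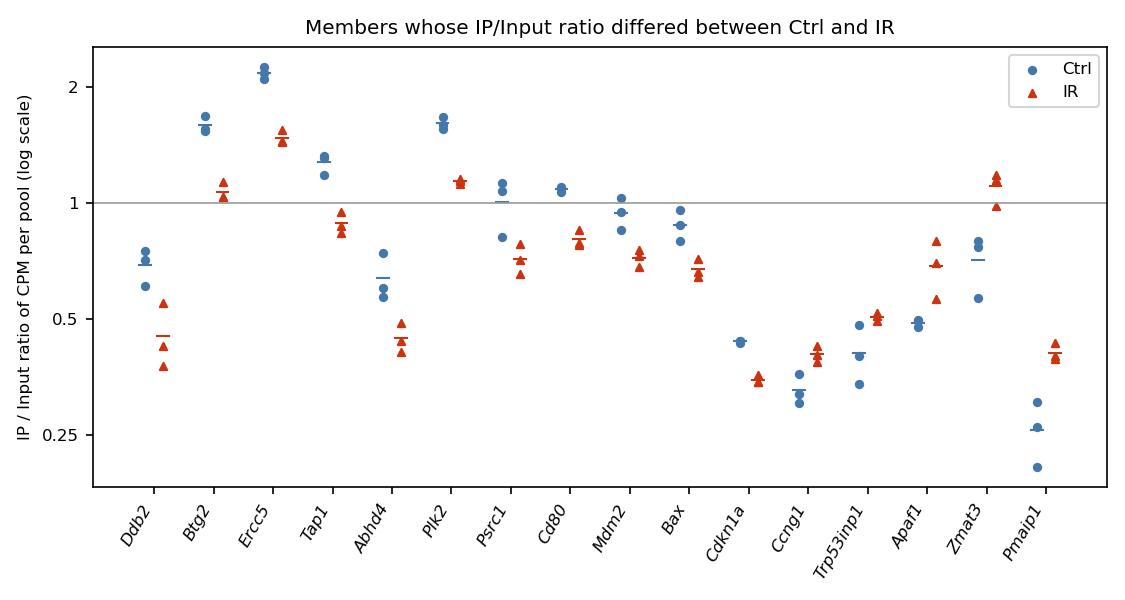
IP/Input ratio of CPM in each pool (log axis, 1 marks equal levels) for the 16 members whose ratio differed between Ctrl (circles) and IR (triangles), with the mean of each group as a short line. *Ddb2* to *Cdkn1a* were lower in IR and *Ccng1* to *Pmaip1* higher, though with library size alone in place of TMM 1 member was called lower and 9 higher. Of all genes 4.23% were lower and 13.8% higher under that scaling.

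For *Trp53* no change of the ratio was detected. Its ratio was 0.297 ± 0.037 (SD, n = 3) in Ctrl and 0.310 ± 0.060 (SD, n = 3) in IR, and the change of 0.05 ± 0.19 in log2 did not pass (edgeR adjusted p = 0.911).

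Some members share exon bases with a gene on the other strand: *Cdkn1a* (273 bases), *Plk3* (84), *Ddb2* (652), *Ei24* (324), *Rrm2b* (734), *Sulf2* (154), *Ptpn14* (177) and *Tap1* (212). Whether the counting used strand is not stated, so reads of these stretches cannot be assigned with certainty.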

How the data were processed

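Reads were trimmed (Trimmomatic 0.39), mapped to mm10 with HISAT and assigned to GENCODE genes with HTSeq by the authors, who deposited raw counts per gene and library. The strand option of HTSeq and whether duplicates were removed are not given in the sources used here. Samples were grouped by their titles. Symbols and coordinates came from a later GENCODE release of the same build (97.8% of identifiers matched with their version, 99.9% with or without it). Lines that name no gene were left out of library sizes, and their shares stand in the report.

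After TMM scaling, the deposited counts entered edgeR's quasi-likelihood test (edgeR 4.0.16, R 4.3.3). A gene was tested if 3 or more libraries of the comparison had 10 or more counts for it. P-values were adjusted over all genes tested (Benjamini-Hochberg, threshold 0.05). Only the libraries of a comparison entered its fit. SE was derived from the fit as |log2 fold change| over the root of F. Levels are CPM on the scale of the 6 libraries of a fraction, and IP/Input ratios are on that of all 12, so a ratio and a fitted fold can differ slightly. The steps were tested on simulated counts.

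Values in every library are given for *Trp53*, *Cdkn1a*, *Mdm2* and up to 4 members per comparison and direction with the largest change past the threshold and a mean of at least 100 counts. Genes of other lists are up to 3 with the largest change. The members, roles and lists were chosen with earlier results of these data known, and the p53 element search was set up after the windows were seen. Marker lists of B, NK, fibroblast, endothelial and erythroid cells were also counted (closing section). Alternatives were DESeq2 1.42.0 (the study's tool), its size factors, library size alone, no filter, a joint fit of all 12 libraries, the replicate block and each library left out in turn.

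By the methods a part of each lysate was kept as Input. They do not say that Input and IP libraries with the same number share a lysate, so pairing by number is an assumption. Deviations of Input and IP libraries from their group means hardly correlated (mean r = -0.0040 in Ctrl and -0.014 in IR, 13527 genes). The Ctrl and IR pools share only a number. Replicates differed by more than counting noise (variance-to-mean ratio 3.59 to 21.5).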

Additional observations from a re-analysis of the deposited data

Results flagged for a closer look

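The IP/Input ratio differed between Ctrl and IR for 16 of the 39 genes by the interaction test of edgeR (adjusted p under 0.05). In the same test 6.28% of all genes had a higher ratio in IR and 13.9% a lower ratio. The changes in log2 were 0.67 for *Pmaip1*, 0.63 for *Zmat3*, 0.49 for *Apaf1*, 0.32 for *Trp53inp1* and 0.31 for *Ccng1*. They were -0.61 for *Ddb2*, -0.57 for *Btg2*, -0.56 for *Ercc5*, -0.52 for *Tap1*, -0.52 for *Abhd4* and -0.49 for *Plk2*. They were -0.48 for *Psrc1*, -0.43 for *Cd80*, -0.38 for *Mdm2*, -0.38 for *Bax* and -0.33 for *Cdkn1a*. With library size alone in place of TMM, which moved the median of all genes by 0.31, 9 members were higher and 1 lower. Of all genes 13.8% were then higher and 4.23% lower. Why the 16 members differ was not tested.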

How the results depend on the processing

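No called value of a member changed sign under any alternative. In the Input comparison, 0 members were lower with all 12 libraries in one fit (2 as reported), and *Sulf2* (adjusted p = 0.0526) and *Apaf1* (0.200) were no longer higher. In the IP, 1 member (*Xpc*) was lower without the filter and 1 with all 12 libraries in one fit (0 as reported). Of members higher in the IP than in the Input of IR, 4 were left without the filter (8 as reported), where the median of all genes also moved. The change of IP/Input gave 9 higher and 1 lower with library size alone (5 and 11 as reported). The shares of all genes were then 13.8% and 4.23% (6.28% and 13.9% as reported). The cause was not tested. Leaving out each library in turn gave 31 to 33 members higher and 1 to 2 lower in the Input, and 24 to 27 higher and 0 to 1 lower in the IP. For IP against Input it gave 9 to 10 higher and 18 to 20 lower in Ctrl, and 5 to 10 higher and 21 to 23 lower in IR. For the change of IP/Input it gave 4 to 6 higher and 7 to 12 lower. With the replicate block, 7 members were higher in the IP of IR, as *Btg2* did not pass, and no other call changed. In Ctrl against IR same-numbered pools share only a number, and the block gave the same 33 and 2 calls in the Input and 27 and 0 in the IP. With DESeq2 in place of edgeR the counts were within 1 of those reported. With 3 pools that may be technical, and with 2 to 12 counts per library, *Ptpn14* allows no firm statement in the Ctrl libraries. Intervals beyond the pools' spread, such as between mice, were not measured.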

Other observations

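Markers of other cell types ranged from 0 to the level of abundant p53 targets in the Inputs, with *Cdh1* (mean 120.5 CPM in Ctrl) and *Vwf* (51.8 CPM) the highest named here. The summed level of 4 B cell markers was 18.8 to 20.3 CPM in the Ctrl Inputs and 24.1 to 26.6 CPM in the IR Inputs. For 4 NK cell markers it was 1.46 to 2.05 and 1.82 to 2.25 CPM, for 6 fibroblast markers 7.13 to 7.60 and 8.23 to 12.7 CPM, and for 4 erythroid markers at most 0.493 and 0.545 CPM. For 5 endothelial markers it was 73.1 to 81.2 and 90.5 to 94.7 CPM, with log2 changes in IR of 1.18 for *Kdr*, 0.45 for *Vwf* and -0.37 for *Pecam1* (all past the edgeR threshold). For 7 epithelial markers it was 120.6 to 129.7 and 87.2 to 93.0 CPM, mostly *Cdh1*, which was lower in IR (log2 -0.51 ± 0.040, edgeR adjusted p = 4.86e-11).

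Of 21 cell cycle genes 11 were lower and 0 higher in the IR IPs and 10 did not pass, against 9.85% of all genes lower. Among those lower were *Mki67* at a log2 of -1.48 ± 0.040, *Cenpf* at -1.22 ± 0.058 and *Cenpe* at -0.94 ± 0.050. Under TMM scaling, the IP/Input ratio was higher in IR for 5 of 31 p53 regulators tested and lower for 9. Of all genes 6.28% were higher and 13.9% lower. The median change in log2 of the regulators was -0.07. Past the threshold the largest changes were in *Atm* (1.15 ± 0.21, edgeR adjusted p = 0.000395), *Setd7* (0.97 ± 0.11, 2.70e-06) and *Trp53bp1* (0.68 ± 0.18, 0.00926). The mean level of *Atm* went from 15.8 to 6.35 CPM in the Inputs and from 11.9 to 11.3 CPM in the IPs.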
